A study of Mus musculus with 5 samples.

Results

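The 9 genes described here are Nr4a1, Nr4a2, Nr4a3, Egr1, Egr2, Egr3, Ier2, Ier3 and Btg2, early genes that cells transcribe soon after a stimulus. They were taken by symbol from the 49927 Ensembl gene IDs of 3 deposited tables. The tables list a value for 8 of them in all 5 libraries and none for Egr3 in any library. Regulatory T cells (Tregs) were sorted from C57BL/6 mice, and all of these mice carried Foxp3Cre, which places Cre recombinase in the gene of the Treg transcription factor Foxp3. One library came from lymph nodes (LN) of 4-month Foxp3Cre mice and 1 from adipose tissue of 4-month Foxp3Cre mice, whose labels say nothing of obesity and which is called lean for short. The obese library came from adipose tissue of obese 4-month Foxp3Cre mice, and its title holds HFD (commonly high-fat diet). The remaining adipose libraries came from 10-month Foxp3Cre mice and from 10-month mice labelled Med23fl/fl;Foxp3Cre, in which Foxp3Cre should remove the floxed Med23 alleles in Foxp3-expressing cells. The sources used here give neither the sort gate nor the number of mice behind a library.

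Early genes need no new protein to be switched on, and their RNA is short-lived, so their level follows recent signalling. Nr4a1, Nr4a2 and Nr4a3 encode orphan nuclear receptors that are induced by T cell receptor signals and help to start and keep up Foxp3 expression. Egr1, Egr2 and Egr3 encode zinc finger factors downstream of the ERK pathway and calcium signals, and Egr2 and Egr3 restrain T cell activation. Ier2 and Ier3 are response genes of growth factors and of NF-kB, and Btg2 encodes an antiproliferative protein that recruits the deadenylase complex to mRNA. MED23, the Mediator subunit named in the genotype, is known as a contact of phosphorylated ELK1, the partner of serum response factor (SRF), and Egr1 is a described target of that route.

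Promoter sequence is shown so that the Nr4a genes and Btg2, which were higher in the adipose libraries than in LN, can be read beside Egr2, which had another pattern. RefSeq gave promoter windows for 6 of the 9 members (Nr4a1, Nr4a2, Nr4a3, Egr2, Ier3 and Btg2) on build GRCm38.p6. The 250 bases before the start are printed 5′ to 3′ for 5 of these genes, and capitals mark every motif match on either strand.
Nr4a1: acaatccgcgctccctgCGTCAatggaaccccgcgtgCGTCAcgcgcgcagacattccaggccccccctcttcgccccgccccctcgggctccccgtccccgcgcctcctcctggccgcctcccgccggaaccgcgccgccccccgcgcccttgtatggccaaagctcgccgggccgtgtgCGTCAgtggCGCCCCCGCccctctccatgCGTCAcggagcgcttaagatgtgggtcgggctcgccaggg
Nr4a2: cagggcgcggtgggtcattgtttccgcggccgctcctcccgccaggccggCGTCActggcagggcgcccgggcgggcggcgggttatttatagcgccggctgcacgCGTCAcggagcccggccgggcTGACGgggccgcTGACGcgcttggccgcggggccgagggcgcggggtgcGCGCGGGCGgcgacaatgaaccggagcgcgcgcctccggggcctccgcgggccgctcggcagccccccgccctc
Nr4a3: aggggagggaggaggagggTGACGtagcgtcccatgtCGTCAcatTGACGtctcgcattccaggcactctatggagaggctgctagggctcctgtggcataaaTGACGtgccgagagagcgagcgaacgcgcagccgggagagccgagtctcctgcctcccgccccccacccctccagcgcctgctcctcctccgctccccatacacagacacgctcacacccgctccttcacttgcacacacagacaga
Egr2: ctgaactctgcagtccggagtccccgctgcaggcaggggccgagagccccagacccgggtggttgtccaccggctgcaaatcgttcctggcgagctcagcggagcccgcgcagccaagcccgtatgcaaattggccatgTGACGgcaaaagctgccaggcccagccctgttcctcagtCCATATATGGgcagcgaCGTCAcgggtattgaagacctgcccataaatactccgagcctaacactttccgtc
Btg2: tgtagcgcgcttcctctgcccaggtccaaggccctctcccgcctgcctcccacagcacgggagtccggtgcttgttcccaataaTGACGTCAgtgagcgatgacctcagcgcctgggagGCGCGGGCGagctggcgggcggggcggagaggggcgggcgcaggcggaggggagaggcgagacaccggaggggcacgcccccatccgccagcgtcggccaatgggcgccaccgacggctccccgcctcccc
The regions are chr15:101266596-101266845 on the plus strand for Nr4a1, chr2:57124004-57124253 on the minus strand for Nr4a2, chr4:48045055-48045304 on the plus strand for Nr4a3, chr10:67537619-67537868 on the plus strand for Egr2 (the start of its curated transcript) and chr1:134079156-134079405 on the minus strand for Btg2. The motifs searched, on both strands, were the CArG box of SRF, the cyclic AMP response element (CRE) TGACGTCA, the EGR site GCGNGGGCG, the NR4A element AAAGGTCA and the NF-kB consensus site.

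Egr2 was the 1 member of the 6 with a CArG box, which began 72 bases before the start, and 1.47% of all 32851 promoter windows of this length hold one. Egr1, Egr3 and Ier2 had no window and were not searched, so Egr2 cannot be set apart from them. The EGR site stood in Nr4a1, Nr4a2 and Btg2, beginning 60, 74 and 131 bases before the start, against 4.7% of all windows. Those 3 windows were 74.4%, 80% and 73.2% G and C, the other member windows 54.4% to 63.6%. The share of all windows was not matched for G and C. The palindromic CRE stood in Btg2 alone (1.55% of all windows). No member window held the NR4A element (1.34%) or the exact NF-kB site (0.14%). Ier3, the member with the highest fold in adipose against LN, had no match to any of these motifs, and its window is not printed. The core CRE letters TGACG, a motif which also lies within the CRE and was added after the sequences were seen, occurred 4 times in each Nr4a window, 2 times in Egr2, 2 times in Btg2 (both within its CRE) and not in Ier3. Of all windows 17.8% held TGACG at least 1 time and 0.688% held 3 or more. These matches describe the letters of the windows, and binding was not measured.

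Values are scaled read counts, and levels over all 5 libraries are given as CPM, after each column was rescaled to a sum of 1000000. Each group was 1 library, so no test between groups exists, and ranges in parentheses are 95% intervals of counting error alone. The listed values stand for 4595046 to 9694474 reads a library, the fewest in the library labelled Med23fl/fl;Foxp3Cre. Med23 itself had 6.40 CPM in LN, 46.8 in lean, 33.3 in obese, 6.32 in 10-month Foxp3Cre and 15.5 in the library labelled Med23fl/fl;Foxp3Cre adipose Tregs. The targeted gene therefore went against the label, although a count summed over a gene cannot tell whether its floxed exons were lost, and every direction given for that library rests on its label. Foxp3 had 52.5 CPM in LN, 216 in lean, 180 in obese, 185 in 10-month Foxp3Cre and 155 in the library labelled Med23fl/fl;Foxp3Cre. All 10 of the T cell and Treg markers were above 0 in every library, but their levels differed. At least 2-fold, 4 were lower and 2 higher in lean than in LN (median log2 ratio -0.91 beside 0.14 for all genes). In obese 3 were lower and 1 higher (-0.71 beside 0.44), and in 10-month Foxp3Cre 3 and 3 (0.19 beside 0.09). Of all genes 32.1% were lower and 37.6% higher in lean, 23.7% and 41.7% in obese, and 26.9% and 31.4% in 10-month Foxp3Cre. The shares of lower markers were thus near those of all genes, and the shares of higher ones were below them in lean and obese. The lower markers included Cd3g and Cd3d each time. The 4-month adipose libraries also stood apart from the other 3: Gapdh had 1.05 and 10.7 CPM against 548 to 979. Cdk2ap2, Ranbp1 and Ndufs3, with at least 100 scaled counts in LN, were listed at 0 in both. Of 1921 genes at 100 CPM or more in 10-month Foxp3Cre, 15 were at 0 in lean, among them Rpl13a. Of 2066 such genes in lean, 19 were at 0 in 10-month Foxp3Cre, among them the pseudogenes Rps19-ps6 and Rpl23a-ps3. What lies behind these gaps was not tested. The female-specific RNA Xist had 0 and 3.60 CPM in the 4-month adipose libraries against 228 to 602 in the other 3. Ddx3y, a gene of the Y chromosome, had 560 CPM in lean, 562 in obese, 0 in LN and no value in the 10-month libraries. Sex as read from these genes thus differed between the 4-month adipose libraries and the other 3. It cannot be told apart from tissue or age in those comparisons. For these reasons the 10-month Foxp3Cre library, which had Gapdh and Xist as LN did, is set beside the 4-month adipose results. That library differed from the 4-month LN library in age as well as tissue, and these cannot be told apart. In bulk RNA, fewer cells of a type and less RNA per cell cannot be told apart.

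The 3 Nr4a genes were far higher in every adipose library than in LN. Nr4a1 (ENSMUSG00000023034), the receptor gene also known as Nur77, had 25.7 CPM in LN, 987 in lean, 395 in obese, 548 in 10-month Foxp3Cre and 377 in the library labelled Med23fl/fl;Foxp3Cre. LN was the lowest and lean adipose the highest library for it, and the neighbours obese and Med23fl/fl-labelled adipose did not differ beyond counting error (ratio 1.05, 0.988 to 1.11). Nr4a2 (ENSMUSG00000026826), or Nurr1, had 55.9 CPM in LN, 327 in lean, 254 in obese, 223 in 10-month Foxp3Cre and 634 in the library labelled Med23fl/fl;Foxp3Cre. Nr4a3 (ENSMUSG00000028341), or Nor1, had 59.5 CPM in LN, 1049 in lean, 856 in obese, 758 in 10-month Foxp3Cre and 1356 in the library labelled Med23fl/fl;Foxp3Cre. Both thus had LN as the lowest and the library labelled Med23fl/fl;Foxp3Cre as the highest, with lean, obese and 10-month Foxp3Cre adipose in the same order in between. All neighbours in that order differed beyond counting error. The step from obese to 10-month Foxp3Cre was small, at 1.14 for Nr4a2 and 1.13 for Nr4a3. It was taken in CPM alone and not repeated under another scaling.

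The Egr genes were lower in level and split from each other. Egr1 (ENSMUSG00000038418), the most widely induced EGR factor, had 36.6 CPM in LN, 118 in lean, 120 in obese and 128 in 10-month Foxp3Cre adipose Tregs, and it was listed at 0 in the library labelled Med23fl/fl;Foxp3Cre. The 3 adipose libraries with a listed Egr1 level did not differ beyond counting error from their adipose neighbours in level (ratios 1.07, 0.979 to 1.17, and 1.01, 0.926 to 1.11). Egr2 (ENSMUSG00000037868) had 5.98 CPM in LN, 5.03 in lean, 21.3 in obese and 7.25 in 10-month Foxp3Cre adipose, and was likewise listed at 0 in the library labelled Med23fl/fl;Foxp3Cre. Only the obese library stood out upward, 2.94 times the next one (2.21 to 3.95), while LN, lean and 10-month Foxp3Cre did not differ from their neighbours beyond counting error. These Egr2 values rest on 43 to 160 reads.

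The Ier genes had opposite patterns. Ier2 (ENSMUSG00000053560) had 423 CPM in LN, 178 in lean, 173 in obese, 407 in 10-month Foxp3Cre and 91.0 in the library labelled Med23fl/fl;Foxp3Cre. It was the 1 member with its highest level in LN, where it took 53.5% of all reads of the 8 genes, against 3.41% to 15.8% in the adipose libraries. LN and 10-month Foxp3Cre adipose did not differ beyond counting error (ratio 1.04, 0.993 to 1.08), nor did lean and obese adipose (1.03, 0.953 to 1.11). Ier3 (ENSMUSG00000003541), also called IEX-1, had 1.96 CPM in LN, from 19 reads, 224 in lean, 83.4 in obese and 211 in 10-month Foxp3Cre adipose, and was listed at 0 in the library labelled Med23fl/fl;Foxp3Cre. Lean and 10-month Foxp3Cre adipose did not differ beyond counting error for it (1.06, 0.994 to 1.13). Btg2 (ENSMUSG00000020423) had 182 CPM in LN, 574 in lean, 550.0 in obese, 303 in 10-month Foxp3Cre and 208 in the library labelled Med23fl/fl;Foxp3Cre. Its 4-month adipose levels were the high ones and its level in the library labelled Med23fl/fl;Foxp3Cre was 1.15 times that of LN (1.06 to 1.24).

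**Figure D1:**
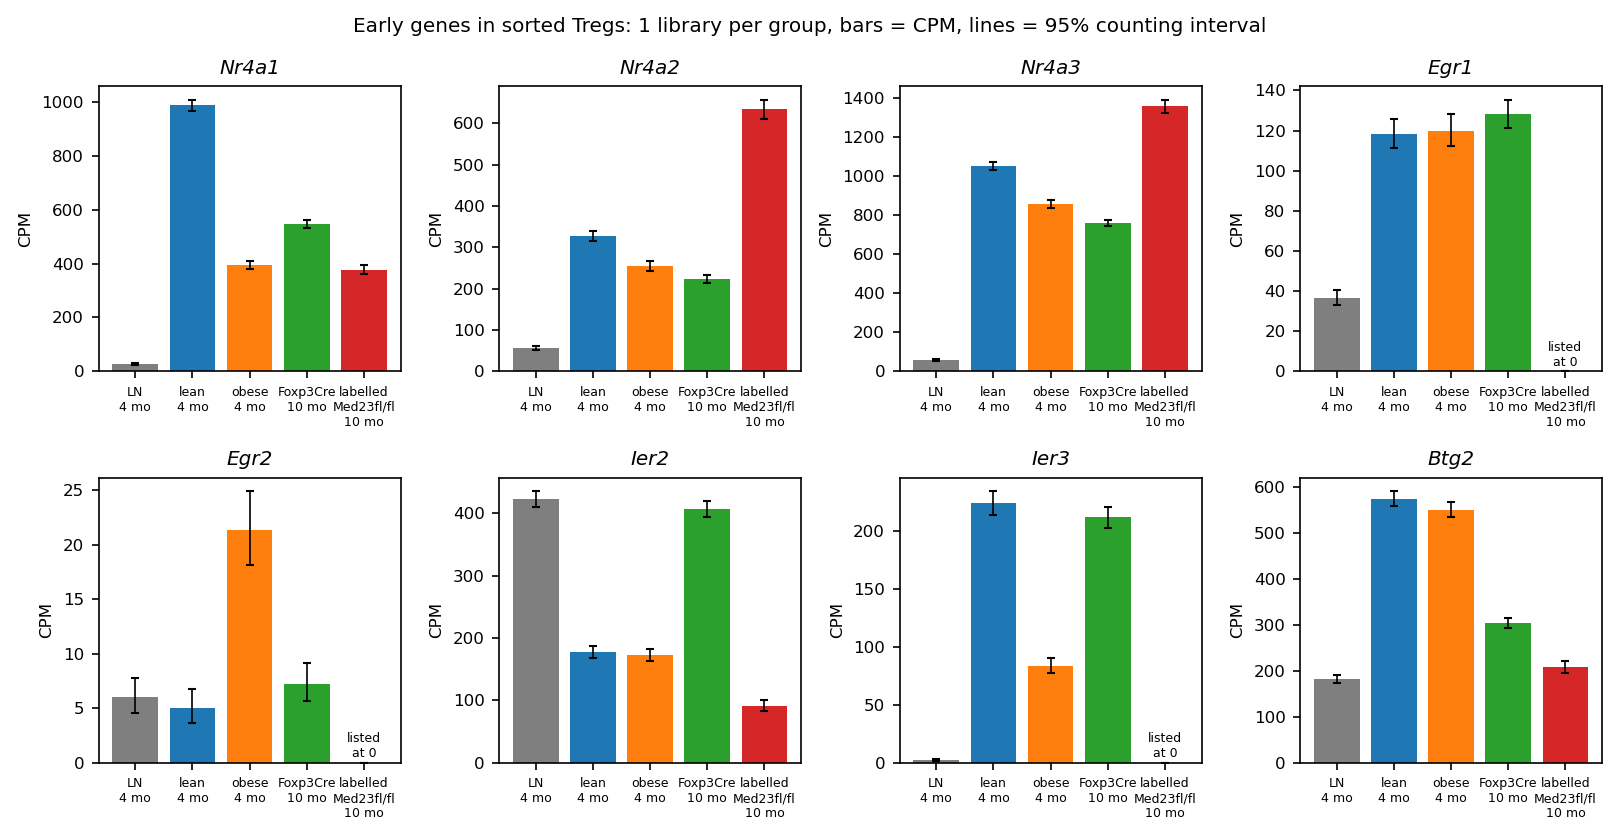
Level of each of the 8 genes with a value, in CPM (each panel has its own axis from 0), in the 5 libraries; bars are single libraries and lines are 95% counting intervals. The Nr4a genes are lowest in LN, Ier2 is highest in LN (423 CPM), and Egr1, Egr2 and Ier3 are listed at 0 in the library labelled Med23fl/fl;Foxp3Cre.

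Set on exon length (the union of GENCODE M21 exons, which may not be the authors' annotation), the genes can be ordered within a library. In LN Ier2 led with 278 CPM per kilobase, followed by Btg2 at 66.4, and no other member was above 13.8. In lean adipose Tregs Nr4a1 led at 281 CPM per kilobase, ahead of Btg2 at 209, Ier3 at 198 and Nr4a3 at 175. In obese adipose Btg2 led at 201 CPM per kilobase, ahead of Nr4a3 at 143, Ier2 at 114 and Nr4a1 at 113. In 10-month Foxp3Cre adipose Ier2 led again with 268, ahead of Ier3 at 187 and Nr4a1 at 156. In the library labelled Med23fl/fl;Foxp3Cre Nr4a3 led at 227, ahead of Nr4a2 at 156 and Nr4a1 at 107. No exon of another annotated gene overlapped an exon of the 9 genes in that annotation.

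The make-up of the Nr4a family can be read within a library and does not depend on how libraries were scaled. Nr4a1 made up 18.2% of Nr4a reads in LN (16.2 to 20.4, exact Clopper-Pearson interval of 1368 reads), 41.8% in lean (41.1 to 42.5), 26.3% in obese (25.4 to 27.1), 35.8% in 10-month Foxp3Cre (35.1 to 36.6) and 15.9% in the library labelled Med23fl/fl;Foxp3Cre (15.2 to 16.6). Nr4a2 made up 39.6% in LN, 13.8% in lean, 16.9% in obese, 14.6% in 10-month Foxp3Cre and 26.8% in the library labelled Med23fl/fl;Foxp3Cre. The summed family level was 141 CPM in LN, 2364 in lean, 1506 in obese, 1529 in 10-month Foxp3Cre and 2367 in the library labelled Med23fl/fl;Foxp3Cre. Lean adipose and the library labelled Med23fl/fl;Foxp3Cre thus had nearly the same sum with a different make-up: Nr4a1 and Nr4a3 held 41.8% and 44.4% in the first, and 15.9% and 57.3% in the second. Per base of exon, Nr4a1 led the family in lean (52.4%) and 10-month Foxp3Cre (46.3%), Nr4a2 led in LN (44.4%), and Nr4a3 led in obese (44.9%) and in the library labelled Med23fl/fl;Foxp3Cre (46.2%).

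**Figure D2:**
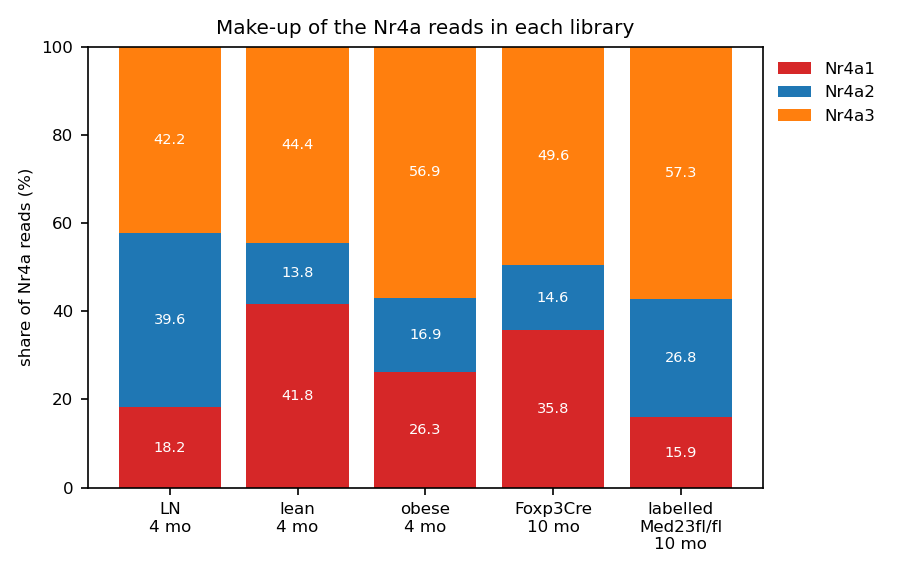
Share of the Nr4a reads (percent) that fell on Nr4a1, Nr4a2 and Nr4a3 in each of the 5 libraries, not corrected for exon length. Nr4a1 holds 41.8% in lean adipose and 15.9% in the library labelled Med23fl/fl;Foxp3Cre, and the share of Nr4a2 is higher in LN (39.6%) than in any adipose library.

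Adipose against LN Tregs asks what sets Tregs of fat apart from those of lymphoid tissue. Within the authors' scaling, the lean adipose level of Nr4a1 was 34.8-fold that of LN (30.7 to 39.7), Nr4a3 16.0-fold (14.7 to 17.4) and Nr4a2 5.30-fold (4.83 to 5.82). In obese adipose the folds were 13.7 for Nr4a1 (12.0 to 15.6), 12.8 for Nr4a3 (11.7 to 13.9) and 4.04 for Nr4a2 (3.67 to 4.45). In 10-month Foxp3Cre adipose, in CPM, they were 21.3 for Nr4a1 (18.8 to 24.3), 12.7 for Nr4a3 (11.7 to 13.9) and 3.99 for Nr4a2 (3.63 to 4.39). All 3 comparisons share the LN library, so their likeness is no independent evidence. The lean and obese libraries also differed from LN in sex, as read from Xist and Ddx3y. The 10-month Foxp3Cre library differed from LN in age, which cannot be told apart from tissue in that comparison.

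Ier3 had the highest fold of the members against LN, 103-fold in lean (66.1 to 172), 37.8-fold in obese (24.0 to 63.2) and 108-fold in 10-month Foxp3Cre adipose (68.9 to 179). Its interval is wide because LN had 19 reads. Egr1 was 2.93-fold higher in lean (2.59 to 3.31), 2.91-fold in obese (2.57 to 3.30) and 3.50-fold in 10-month Foxp3Cre adipose (3.11 to 3.95). Btg2 was 2.86-fold higher in lean (2.71 to 3.02), 2.68-fold in obese (2.54 to 2.84) and 1.66-fold in 10-month Foxp3Cre adipose (1.57 to 1.77). Ier2 was 2.63-fold lower in lean (2.48 to 2.79) and 2.75-fold lower in obese adipose (2.59 to 2.93). In 10-month Foxp3Cre adipose Ier2 was 0.964 times LN (0.923 to 1.01), so its lower level in the 4-month adipose libraries was not seen in that one. The library labelled Med23fl/fl;Foxp3Cre, also of 10 months, had the lowest Ier2 level of all (91.0 CPM). Egr2 was 0.763 times LN in lean (0.502 to 1.15), 3.17-fold higher in obese (2.33 to 4.36) and 1.21 times LN in 10-month Foxp3Cre adipose (0.844 to 1.75).

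**Figure D3:**
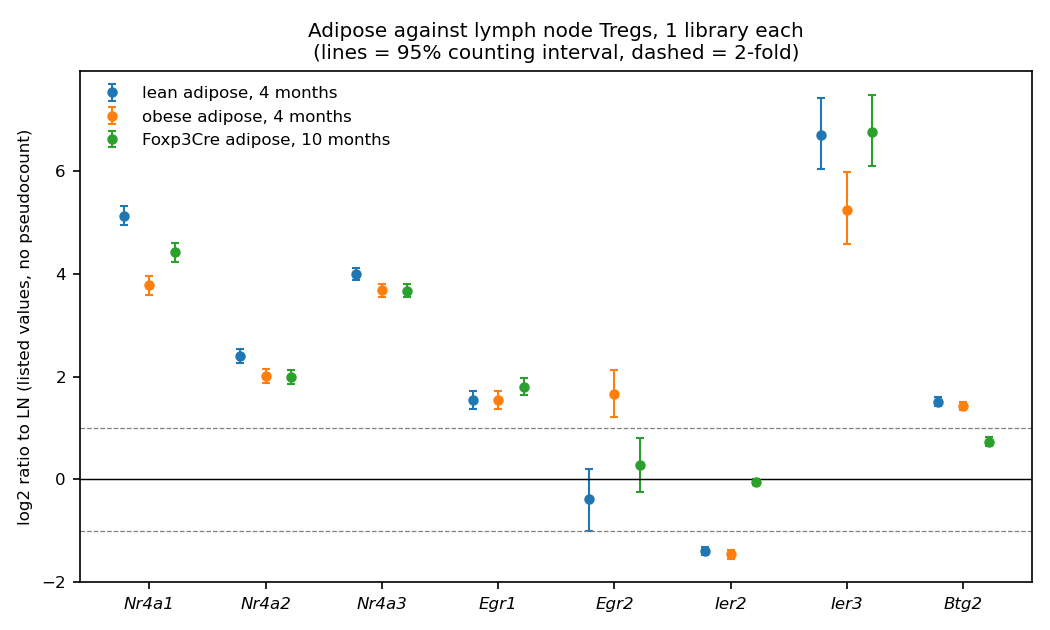
log2 ratio of each of the 8 genes to LN in lean, obese and 10-month Foxp3Cre adipose Tregs, from listed values without a pseudocount (1 library each); lines are 95% counting intervals and dashed lines mark 2-fold. The Nr4a genes, Egr1, Ier3 and Btg2 lie above 0 in all 3 libraries, and Ier2 lies below -1 in the lean and obese libraries and near 0 in the 10-month one.

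Counted at 2-fold or more, with 1 added to each value, 6 of 8 members were higher in lean adipose than in LN and 1 was lower, where 37.6% of 13501 measured genes were higher and 32.1% lower. In obese adipose 7 of 8 were higher and 1 lower, against 41.7% and 23.7% of 14671 genes. In 10-month Foxp3Cre adipose 5 of 8 were higher and none lower, against 31.4% and 26.9% of 11432 genes. Large differences were thus common in these single libraries, and the members' median log2 ratios of 1.96, 1.76 and 1.88 stood beside medians of all genes of 0.14, 0.44 and 0.09.

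Genes around the members were described by lists. The relatives and partners were NAB corepressors, RXR partners, SRF and its cofactors, CREB factors and IER, BTG and TOB relatives. Of the 17 measured, 9 were higher and 1 lower in lean adipose than in LN, against 37.6% and 32.1% of all genes. In obese adipose 7 were higher and 1 lower, against 41.7% and 23.7%, so the share of higher ones was near that of all genes. In 10-month Foxp3Cre adipose 9 were higher and 3 lower, against 31.4% and 26.9%. Crem, a CREB-family gene, was 14.8-fold higher in lean (13.9 to 15.6), 10.4-fold in obese (9.78 to 11) and 28.3-fold in 10-month Foxp3Cre adipose (26.7 to 29.9). Nab2, which encodes an EGR corepressor, had 10.7 scaled counts in lean adipose and 7.54 in obese, Srf had 12.9 and 6.41, and Ier5l had 31.2 and 22.1, while each of these 3 was listed at 0 in LN. In 10-month Foxp3Cre adipose the same genes had 19.2, 26.5 and 35.6 CPM. Of 40 other early response genes, 20 were higher and 4 lower in lean, 20 and 3 in obese, and 22 and 2 in 10-month Foxp3Cre adipose. The shares of all genes beside them are the same as for the relatives. The 4 with the largest ratios were the same in all 3 comparisons: the AP-1 and ATF genes Fosl2 and Atf3, the kinase gene Plk3 and the ERK phosphatase gene Dusp5. Fosl2 was 69.0-fold higher in lean (57.8 to 83.0), 54.6-fold in obese (45.7 to 65.7) and 56.8-fold in 10-month Foxp3Cre adipose (47.6 to 68.4). Atf3 was 25.2-fold higher in lean (20.3 to 31.8), 24.1-fold in obese (19.4 to 30.4) and 71.5-fold in 10-month Foxp3Cre adipose (57.6 to 89.7). With ratios centred on the median of all genes the obese counts for this list became 14 higher and 7 lower, against 31.3% of all genes in each direction, so its share of higher genes was then near that of all genes. Of the T cell genes described as NR4A or EGR responsive, 6 of 18 were higher and 1 lower in lean adipose, with a median log2 ratio of 0.15 beside 0.14 for all genes. In obese adipose 9 of 19 were higher and 1 lower (median 0.66 beside 0.44), and in 10-month Foxp3Cre adipose 8 of 18 and 1 (median 0.54 beside 0.09). Of all genes 37.6% were higher in lean, 41.7% in obese and 31.4% in 10-month Foxp3Cre adipose. The ratio of Pdcd1, the gene of the checkpoint receptor PD-1, was 44.6 in lean (32.0 to 64.3), 50.7 in obese (36.3 to 73.0) and 92.1 in 10-month Foxp3Cre adipose (66.1 to 133). That of Irf4 was 34.8 in lean (27.6 to 44.7), 6.38 in obese (4.96 to 8.32) and 30.1 in 10-month Foxp3Cre adipose (23.8 to 38.6).

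Other signals moved with the adipose libraries. The 12 heat shock genes summed to 2357 CPM in LN, 10296 in lean, 4808 in obese, 4182 in 10-month Foxp3Cre and 3117 in the library labelled Med23fl/fl;Foxp3Cre, with Hspa1a, Hspa1b and Bag3 at 0 in LN. Of 19 macrophage and dendritic cell markers, 3 were above 0 in LN (summed 33.6 CPM, with Adgre1, Cd68 and Csf1r at 0), 14 in lean (1218), 19 in obese (5991), 12 in 10-month Foxp3Cre (667) and 8 in the library labelled Med23fl/fl;Foxp3Cre (133). Their part in the members' levels was not tested. Egr2 was highest in obese adipose, where the macrophage sum was highest as well, while Nr4a1 and Ier3 were lower in obese than in lean adipose, and Ier2 was highest in LN, where that sum was lowest. Erythroid markers summed to 0 CPM in LN, 584 in lean, 1066 in obese and 1202 in 10-month Foxp3Cre, and adipocyte markers to 0 in LN, 13.7 in lean, 306 in obese and 38.0 in 10-month Foxp3Cre, with Plin1, Lep and Cfd at 0 in every library; their part was not tested. Fibroblast and mesothelial markers summed to 982 CPM in lean, 48.9 in 10-month Foxp3Cre, 14.7 in obese and 8.56 in LN. They were at 0 in the library labelled Med23fl/fl;Foxp3Cre. Ier3 had the libraries in the same order (224, 211, 83.4, 1.96 and listed at 0 CPM), although its lean and 10-month levels did not differ beyond counting error. Nr4a1 and Btg2 were likewise highest in lean adipose, but both were lower in LN than in the library labelled Med23fl/fl;Foxp3Cre. The other members with a value were highest elsewhere. The part of these markers in the members' levels was not tested either.

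Obese against lean adipose Tregs asks how the obesity of the host goes with gene activity in Tregs of fat. Nr4a1 was 2.55-fold lower in obese (2.44 to 2.66) and Ier3 2.74-fold lower (2.50 to 3.00), while Egr2 was 4.16-fold higher (2.95 to 5.96). Nr4a2 was 1.31-fold lower (1.24 to 1.39) and Nr4a3 1.25-fold lower (1.21 to 1.29). Egr1 and Ier2 did not differ beyond counting error, with ratios of 0.994 (0.908 to 1.09) and 0.954 (0.885 to 1.03), and Btg2 was 1.06-fold lower (1.02 to 1.11). At 2-fold, 1 of 8 members was higher and 2 were lower, against 26.7% and 17.6% of 12694 genes. Of the 40 other early response genes 4 were higher and 4 lower, both below those shares of all genes. Myc was 0.303 times lean (0.272 to 0.337) and Klf10 0.351 times (0.325 to 0.378), while Plk2 was 5.75-fold higher (4.89 to 6.80).

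The library labelled Med23fl/fl;Foxp3Cre against 10-month Foxp3Cre adipose asks what goes with the Med23 genotype, and it divided the early genes. Nr4a2 was 2.30-fold higher in it (2.18 to 2.44) and Nr4a3 1.45-fold higher (1.40 to 1.5), while Nr4a1 was 1.80-fold lower (1.70 to 1.90) and Btg2 1.79-fold lower (1.67 to 1.93). Ier2 had 81.8 scaled counts against 452, 5.53-fold lower (5.0 to 6.13). Egr1, Ier3 and Egr2 were listed at 0 against 142, 235 and 8.05 scaled counts. The members thus went in both directions, and the Nr4a family itself split.

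A value under 1 is listed as 0, but the fold changes in the authors' deposited table show what lay behind it. In the authors' deposited table the log2 fold change of Egr1 was -8.50, which corresponds to 2 reads in the library labelled Med23fl/fl;Foxp3Cre against 1236 in 10-month Foxp3Cre, a ratio of 363 (100.4 to 3003). In the same authors' deposited table the log2 fold change of Ier3 was -9.23, which corresponds to 2 reads against 2039, a ratio of 599 (166 to 4952). For Egr2 the authors' deposited table gives -4.01, which corresponds to a value of 0.5, taken here as no reads, so that against a floor of 3 reads Egr2 was at least 13.7-fold lower. Of the 3173 IDs in the authors' deposited table of the 10-month libraries with 1 of their 2 values at 0 and a fold change, 1445 gave a whole number of reads within 0.02, 1728 gave 0.5 and 0 gave anything else. All 3 members at 0 therefore had at most 2 reads in a library whose smallest nonzero listed value stands for 6.

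Of 2116 genes with at least 100 scaled counts in 10-month Foxp3Cre, 20 were listed at 0 in the library labelled Med23fl/fl;Foxp3Cre (0.945%), and Egr1 and Ier3 were among them. In the other direction 2 of 1951 were. Pparg, the nuclear receptor gene of adipose Tregs, and the chemokine and receptor genes Cxcl3, Cxcl5 and Ccr1, named here after their values were seen, were also among the 20. At 2-fold, 1 of 8 members was higher and 4 were lower, against 28.6% and 34.9% of 13496 genes, with a median log2 ratio of -1.65 beside -0.15 for all genes. In CPM the log2 ratios were 1.5 for Nr4a2, 0.84 for Nr4a3, -0.54 for Nr4a1 and for Btg2, and -2.15 for Ier2, so each kept its side. That rescaling moved the median of all genes from -0.15 to 0.14.

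**Figure D4:**
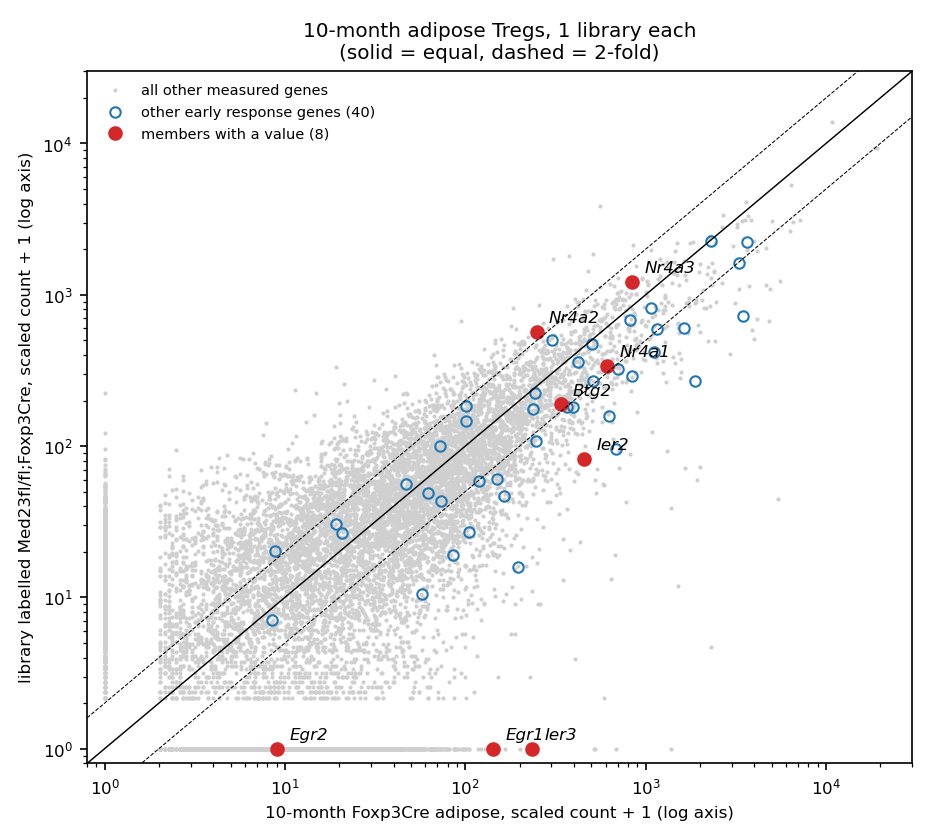
Scaled count + 1 of each measured gene in 10-month Foxp3Cre adipose (x) and in the library labelled Med23fl/fl;Foxp3Cre (y), both on log axes, 1 library each; the solid line marks equal values and the dashed lines 2-fold, filled circles are the 8 members and open circles the 40 other early response genes. Egr1, Egr2 and Ier3 lie on the bottom line, where values are listed at 0, and Nr4a2 and Nr4a3 lie above the solid line.

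Around the members, 19 of 40 other early response genes were at least 2-fold lower in the library labelled Med23fl/fl;Foxp3Cre, against 34.9% of all genes. In the other direction 1, Mafk, was higher, against 28.6%, and the list had a median log2 ratio of -0.94 beside -0.15 for all genes. In CPM these counts were 12 lower and 3 higher (31.1% and 33.1% of all genes), so the share of lower genes was near that of all genes and the share of higher ones below it, with a median of -0.64 beside 0.14. Klf10 was lowest by ratio, at 0.0761 of its 10-month Foxp3Cre value (0.0597 to 0.0958), followed by Atf3 at 0.138 (0.125 to 0.151), the activation marker Cd69 at 0.144 (0.136 to 0.152) and Jun at 0.169 (0.123 to 0.227). Of the 17 relatives and partners 3 were higher and 4 lower (3 and 1 in CPM), all below the shares of all genes. Their median log2 ratio of -0.09 became 0.21 in CPM. Tob2, a BTG relative, was 2.86-fold higher (2.66 to 3.07), and Elk4, which encodes an SRF partner, was 0.411 times (0.352 to 0.478). Elk1 had 1.5 scaled counts in 10-month Foxp3Cre and was listed at 0 in the other library. Of 18 NR4A or EGR responsive T cell genes 5 were higher and 6 lower (median -0.09, and 0.21 in CPM), near the shares of all genes. Irf4 was at 0.0640 of its 10-month Foxp3Cre value (0.0506 to 0.0799) and Pdcd1 at 0.245 (0.222 to 0.270). The ubiquitin ligase gene Rnf128 went the other way, with 68.5 scaled counts against 0. The macrophage and dendritic cell markers were lower in this library as well (10 of 13 measured, 2 higher), the T cell and Treg markers summed to 9248 against 11053 CPM, and the erythroid markers summed to 8943 against 1202 CPM; their part in the members' differences was not tested. In LN, where the macrophage sum was 33.6 CPM, Egr1 had 36.6 CPM, Ier2 423 and Ier3 1.96, and whether these levels are linked to that sum was not tested.

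The comparison of 10-month Foxp3Cre with lean 4-month adipose Tregs, in CPM, differs in age and in the split of Gapdh and Xist noted above. It thus differs in sex as well, as read from Xist, and these cannot be told apart. Ier2 was 2.30-fold higher in the 10-month library (2.16 to 2.44), while Btg2 was 1.89-fold lower (1.81 to 1.98), Nr4a1 1.80-fold (1.74 to 1.86), Nr4a2 1.47-fold (1.39 to 1.55) and Nr4a3 1.38-fold lower (1.34 to 1.43). Egr1, Egr2 and Ier3 did not differ beyond counting error, with ratios of 1.08 (0.996 to 1.18), 1.44 (0.972 to 2.16) and 0.944 (0.887 to 1.01). At 2-fold, 1 of 8 members was higher and none lower, against 25.7% and 28.2% of 11735 genes.

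Likeness of pattern was measured for Nr4a1 and Egr2 as the root mean square difference of centred log2(CPM + 1) over the 5 libraries, among 9176 other genes at 10 CPM or more in at least 1 library. Closest to Nr4a1 were Tdrd3 (0.20), Rad54l (0.22), Ccdc184 (0.25), Piezo1 (0.25) and Tmem167b (0.27), where the median gene had 1.99. All but Piezo1 of these were listed at 0 in LN, and their highest levels, 21.8 to 63.7 CPM, were in lean adipose. Closest to Egr2 were Slc10a7 (0.18), Ccdc88a (0.21), St6galnac4 (0.26), Il18 (0.30) and Ubxn6 (0.31), where the median gene had 1.67. Their highest levels were in obese adipose, as for Egr2, at 24.5 to 37.4 CPM, and none had more than 1.31 CPM in the library labelled Med23fl/fl;Foxp3Cre.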

How the data were processed

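Total RNA (3 ug) of sorted Tregs was made into TruSeq libraries, per the labels' protocols. TopHat2 2.0.9, Bowtie2 2.0.6 and build mm8 stand in the submitters' processing notes. The sources used here do not name the counter, annotation, strand setting or scaling. The authors deposited 3 tables of 2 libraries each, with a scaled count per library (the signal), the log2 fold change between them, its p-value and q-value, and a mark. Those p-values and q-values compare libraries and are not printed. Each nonzero value is a multiple of the worth of 1 read in its library, within 0.01 read, and values under 1 are listed as 0. No count model was fitted.

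Symbols came from GENCODE M21, and an ID with more reads was kept where IDs shared a symbol. Ratios within a table use the authors' scaling (obese against lean through the LN library of both tables) and ratios across tables use CPM, which differ from the former by a factor of 1.02 to 1.24. A gene was measured at 1 or more in at least 1 library, and 2-fold counts use log2 of value + 1. Folds of single genes use listed values, with 95% Clopper-Pearson intervals conditional on both libraries' reads, and intervals of CPM are exact Poisson. The libraries carry no molecular identifiers, so reads are not separate molecules and the intervals leave out every error but counting.

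The members, lists and comparisons were chosen with earlier results of these data known. Named were all members, Med23, genes among the 4 largest ratios of each list in a comparison, and the 5 genes most like Nr4a1 and Egr2; further genes in ranges or library checks are named outside that rule. Calculations used Python 3.11.15, numpy 2.4.6, pandas 2.3.3, scipy 1.17.1 and matplotlib 3.10.9, and were tested on simulated data. The alternatives were other pseudocounts, thresholds, minimum values and scalings.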

Additional observations from a re-analysis of the deposited data

Results flagged for a closer look

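Egr2 was on different sides of LN in the adipose libraries of 4-month mice, with a log2 ratio (1 added to each value) of -0.33 in lean adipose and 1.52 in obese adipose. In 10-month Foxp3Cre adipose it was 0.24. The difference between these ratios was not tested, the libraries share the LN library, and the lean and 10-month ratios lie within counting error of 1.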

How the results depend on the processing

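Each comparison was repeated with pseudocounts of 0.5 and 5, thresholds of 1.5-fold and 4-fold, a minimum of 10, ratios centred on the median of all genes, and another scaling of the columns. Of 84 such counts of members higher or lower, 75 were within 1.5 times the reported one, and 3 of 192 log2 ratios of single members changed sign, none of them among the 116 whose reported ratio was past 2-fold. They were Egr1 in obese against lean adipose (from -0.01 to 0.02 with columns scaled to equal sums) and Ier3 in 10-month Foxp3Cre against lean adipose (from -0.08 to 0.03 when centred and 0.06 with equal upper quartiles). Many ratios kept their sign but left their counting interval, such as Nr4a1 in obese adipose against LN (from 3.72 to 3.28 when centred). Of these ratios and the Nr4a shares per base of exon together, 80 fell outside the counting interval and 127 within it. The intervals thus leave out the choice of scaling and pseudocount. Shares of all genes stand in parentheses. At 4-fold, 0 members were lower in lean adipose than in LN (17.6%). In obese adipose 3 were higher than in LN (21.7%) and 0 lower (9.17%), and in 10-month Foxp3Cre adipose 3 were higher (16%). At 4-fold, 0 were higher (13.1%) and 0 lower (5.78%) in obese than in lean adipose. In the library labelled Med23fl/fl;Foxp3Cre 0 were higher than in 10-month Foxp3Cre (13.8%), and in 10-month Foxp3Cre 0 were higher than in lean adipose (13.4%). At 1.5-fold, 2 were lower in 10-month Foxp3Cre than in lean adipose (37.2%). These follow from the size asked for. The number of member promoters with a motif was 4 of 6 in the 250 bases before the start, and 4 with the 50 bases after it. With 1 library per group no replicate could be left out. No paired analysis was possible because each group has 1 library. Egr2 in LN, lean and 10-month Foxp3Cre (43 to 70 reads) and Ier3 in LN (19 reads) are limited by depth.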
